A study of Sus scrofa domesticus with 16 samples.

Results

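Solute carriers are membrane proteins that move sugars, amino acids, metals, nucleotides, vitamins and inorganic ions across the cell surface and across the membranes of organelles. They are named by family, SLC and a number, with an A and a second number for the member. In the adrenal gland the cortex makes steroid hormones partly in mitochondria, which have carriers of their own. The medulla makes catecholamines with the help of vitamin C, which reaches cells through its own transporters. The roles given below are those known from human and mouse proteins.

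The genes described were those whose symbol in the array's annotation starts with SLC and a digit, except SLC18A1, which is not reported here. There were 120 such genes of the 6765 genes with a probe set of 1 symbol, in 37 families and with 176 probe sets, and each gene was read from its brightest probe set by mean log2 signal over the arrays. Of these, SLC2A4RG, SLC9A3R1 and SLC9A3R2 carry the name of a carrier but encode partner proteins, a transcription factor and 2 scaffold proteins. A further 5 probe sets, annotated to SLC23A3 or SLC12A8 with several gene entries, were not used.

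The gland came from 16 domestic pigs, and each animal had 1 Affymetrix GeneChip Porcine Genome Array. The high stress group was 8 pigs from a mixing treatment of high aggressiveness, and the low stress group was 8 pigs from a mixing treatment of low aggressiveness. In both groups pigs that did not know each other had been put together, so no unmixed animals were compared, and the submitters state that the 2 groups were chosen for a difference in aggressive behaviour and in plasma cortisol. Age, breed and sex are not given in the labels used here. The question was which transporter transcripts of the gland differ with this choice of animals.

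Array medians ran from 116 to 147 in high stress and from 123 to 146 in low stress. All 7 cortex markers measured, among them STAR and CYP11A1, and all 4 of 6 chromaffin cell markers measured lay above the filter value on all 16 arrays, while none of the 3 liver markers did so. The summed signal of the cortex markers ranged from 86651 to 119835 in high stress and from 79715 to 114781 in low stress, and that of the chromaffin markers from 27989 to 54792 in high stress and from 27104 to 51956 in low stress. The 2 of 3 smooth muscle markers measured summed to 5328 to 14491 in high stress and to 2524 to 15200 in low stress, with log2 differences of 0.50 for TAGLN and 0.33 for ACTA2. The adipocyte marker ADIPOQ, above the filter value on no array, had a mean log2 signal of 3.25 in high stress, against 5.20 in low stress. The other adipocyte marker measured, FABP4, lay above that value on all 16 arrays, at 7.35 in high stress and 7.42 in low stress. The part of these cell types in the carriers' values was not tested. The arrays fell into 2 sets of 8 by the signal of the dap labelling control, which was 516 to 721 in a low-spike set and 3261 to 4826 in a high-spike set, with 4 animals of either stress group in each. Between the sets 25 of 82 tested carriers differed at an adjusted p under 0.05 with limma, 8 higher and 17 lower in the high-spike set, against 40.1% of all probe sets tested, so values within each set, and from a fit that blocks on the set, are given where they bear on a gene. Probe sets higher in the high-spike set were 23.7% of all, and lower 16.3%. By these markers the tissue held both cortex and medulla, and fewer cells of a type cannot be told apart from less RNA per cell.

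Of the 120 carriers, 82 had a mean log2 signal of at least 6.15 (a signal of 71.1), the 40th percentile of all probe sets, and were tested; 71 lay above that value on all 16 arrays, 28 on some and 21 on none. The signals of different probe sets are not on one scale, because probes bind with different strength, so the values describe each gene and do not rank the genes. The carriers just below the filter were SLC46A2, SLC38A1 and SLC25A48, at mean log2 signals of 6.02, 6.04 and 6.12, and those just above it were SLC29A1, SLC9A5 and SLC22A3, at 6.20, 6.34 and 6.45. By the brightest probe set 80.6% of all 6765 genes passed this filter, against 68.3% of the carriers. Among the classes, 18 of 21 mitochondrial carriers (85.7%), 12 of 13 metal ion transporters (92.3%) and 11 of 13 nucleoside and nucleotide-sugar transporters (84.6%) were tested. Fewer passed among amino acid and neurotransmitter transporters, 9 of 19 (47.4%), and transporters of organic ions, bile acids, peptides and dicarboxylates, 2 of 8 (25%).

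**Figure D1:**
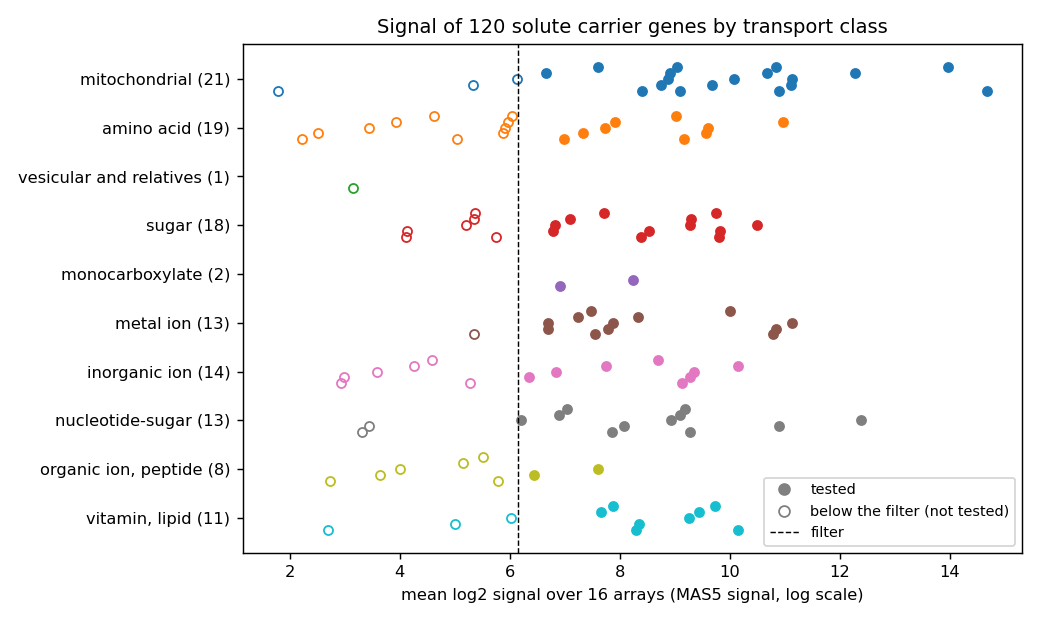
Mean log2 signal over 16 arrays (horizontal axis, log scale) of 120 solute carrier genes, 1 point per gene, by transport class with the number of genes in brackets. Filled points lie at or above the filter value of 6.15 (dashed line) and were tested; open points lie below it, among them 10 of 19 amino acid and 6 of 8 organic ion and peptide transporters.

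No solute carrier differed between the stress groups after adjustment. In limma 0 of 82 tested carriers passed an adjusted p under 0.05, against 0% of all 14399 probe sets tested, and the smallest adjusted p was 0.999. With the set as a block again none of the 82 passed, against 0.00694% of all probe sets, and the smallest adjusted p was 0.682. At an unadjusted p under 0.05, 4 of 82 (4.88%) were higher in high stress, against 1.27% of all probe sets, and 0 were lower, against 1.92%, which makes 4 in either direction against 3.19%. With the set as a block 6 were higher and 1 lower, against 6.38% in either direction. Blocking instead on the first digit of the animal number, whose meaning the labels do not give, left 5 higher (1.17% of all probe sets) and 0 lower (1.79%; 2.96% in either direction). In no carrier did the groups separate, against 0.0208% of all probe sets with high stress above low stress and 0% with high stress below. In 59 of 82 carriers the 95% confidence interval lay within 1.5-fold in either direction, against 70.6% of all probe sets. The log2 difference, high minus low stress, ranged from -0.53 (SLC29A1) to 0.42 (SLC9A5) with a median of 0.05, and 51 carriers were above 0 and 31 below, where 41.6% of all probe sets were above 0. With each array centred on its median instead, 60 carriers were above 0 and 22 below, and 60.8% of all probe sets were above 0. SLC29A1 and SLC9A5 reached the filter value in the mean of 1 group only, and the other 80 carriers ranged from -0.31 to 0.40 with a median of 0.05. Over the 5455 genes tested the median was 0.00, with 2739 above 0 and 2716 below.

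The 4 carriers at an unadjusted p under 0.05 were SLC1A4, SLC23A2, SLC25A11 and SLC5A6, and the count rested on single animals. Without low stress replicate 3 their log2 differences were 0.31, 0.30, 0.31 and 0.27 in the same order, with limma p of 0.0593, 0.0523, 0.0878 and 0.0739, and the count of higher carriers was 0; it was 1 without high stress replicate 6 or low stress replicate 5, and 2 without high stress replicate 4 or 8 or low stress replicate 1 or 2. The count of lower carriers was 1, SLC35A4, without low stress replicate 3 (-0.30, with a limma p of 0.0236) and without high stress replicate 1 or 6. Over the fits without 1 animal, 0.868% to 2.04% of all probe sets were higher and 1.61% to 2.80% lower at that threshold. Low stress replicate 3 was the lowest of all 16 animals in 22 of 82 carriers (26.8%), against 12.8% of all probe sets tested. Without it 42 carriers were above 0 and 40 below, and the median log2 difference of the carriers was 0.00. The same animal was the highest of the 16 in 5 of 82 carriers (6.10%), against 13.1% of all probe sets tested. That array's median correlation with the arrays of its own set was 0.960, against 0.956 to 0.967 for the other high-spike arrays. Its lowest correlation within the set, 0.934, was the lowest of any array and was shared with high stress replicate 7.

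**Figure D2:**
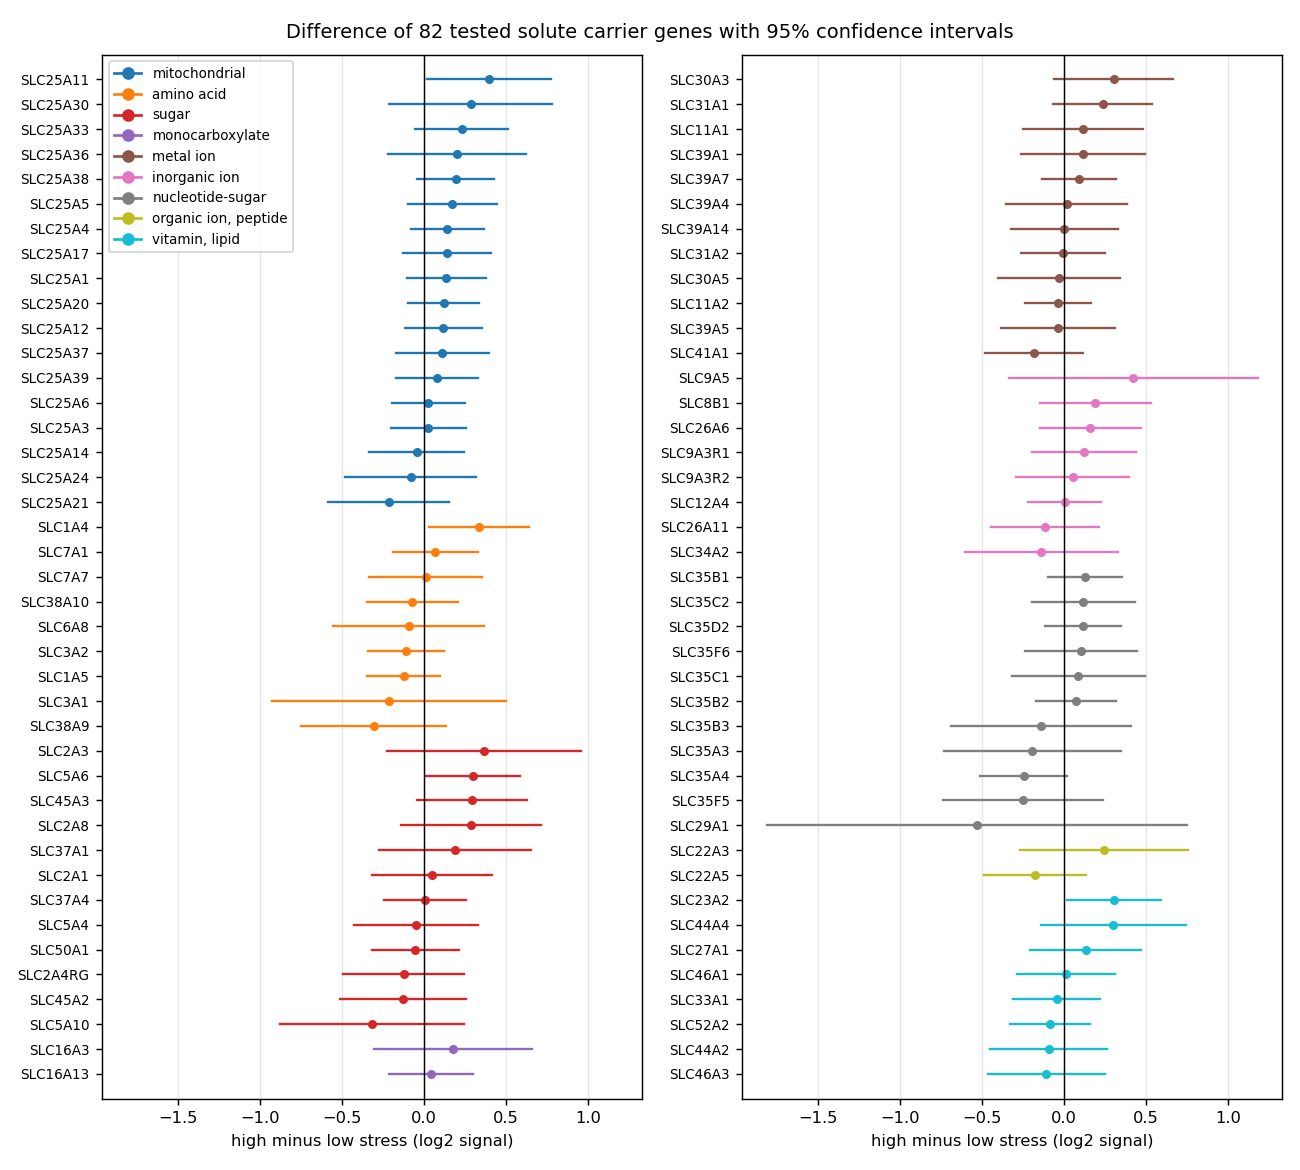
Log2 difference, high minus low stress, of the 82 tested carriers (points) with 95% confidence intervals from limma (lines), coloured by transport class and ordered by size within a class. The intervals of SLC1A4, SLC23A2, SLC25A11 and SLC5A6 lie above 0 without adjustment, and the widest interval is that of SLC29A1.

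Mitochondrial carriers of the SLC25 family mostly move metabolites across the inner mitochondrial membrane. Of 18 tested, 15 were above 0 and 3 below, with a median log2 difference of 0.13 and a range from -0.21 to 0.40, and none passed. Without low stress replicate 3 there were 12 above 0 and 6 below, with a median of 0.12.

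SLC25A11 exchanges 2-oxoglutarate for malate in the malate-aspartate shuttle. Its log2 signal was 8.47 at the lowest, 9.26 at the median and 9.86 at the highest in high stress glands, against 8.21, 8.94 and 9.08 in low stress glands. Of the high stress animals 6 lay above every low stress animal and 2 lay within the low stress range, both on high-spike arrays. The log2 difference was 0.40 (95% confidence interval 0.02 to 0.78, a fold of 1.32), with a limma p of 0.0395 that did not survive adjustment (adjusted p = 0.999). With the set as a block the interval was 0.14 to 0.66 and the p 0.00425 (adjusted p = 0.682). The gene also differed between the sets, with means of 8.76 in the high-spike set and 9.31 in the low-spike set (adjusted p = 0.00208, limma).

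The carriers that link mitochondria to ATP supply had the following values. SLC25A4, an ADP/ATP carrier, ranged from 10.63 to 11.08 in high stress and from 10.44 to 11.01 in low stress, a log2 difference of 0.14 (SE 0.11). SLC25A5, a second ADP/ATP carrier, ranged from 11.91 to 12.76 in high stress and from 11.90 to 12.52 in low stress, a log2 difference of 0.18 (SE 0.13). SLC25A6, also an ADP/ATP carrier, was at 0.03 (95% confidence interval of the fold 0.873 to 1.19) and SLC25A3, the phosphate carrier, at 0.03 (0.87 to 1.19). The groups overlapped in each of these genes.

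SLC25A38, which brings glycine into mitochondria for haem synthesis, had 8.82, 9.22 and 9.47 (lowest, median and highest) in high stress and 8.70, 9.001 and 9.25 in low stress. Its log2 difference was 0.20 (SE 0.11), and 0.21 on low-spike arrays and 0.19 on high-spike arrays. SLC25A33, a pyrimidine nucleotide carrier, was at 0.23 (SE 0.14) and SLC25A20, which exchanges acylcarnitine for carnitine, at 0.12 (SE 0.10). SLC25A21, a carrier of oxodicarboxylates, had the lowest value of the class, -0.21 (SE 0.17). Its highest high stress animal was at 9.12, and 3 low stress animals lay above that, up to 9.66. SLC25A46, SLC25A48 and SLC25A51 lay below the filter.

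Amino acid transporters supply protein synthesis and, in some families, end the action of neurotransmitters. Of 9 tested, 3 were above 0 and 6 below, with a median log2 difference of -0.09, and none passed. SLC1A4, a carrier of small neutral amino acids, had 7.09, 7.54 and 7.89 in high stress and 6.82, 7.03 and 7.69 in low stress (lowest, median and highest). Of the low stress animals 2, at 7.61 and 7.69, lay above all but 1 high stress animal. The log2 difference was 0.34 (95% confidence interval 0.03 to 0.64, a fold of 1.26), with a limma p of 0.0331 and an adjusted p of 0.999, and it was 0.12 on low-spike arrays and 0.55 on high-spike arrays.

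The related glutamine carrier SLC1A5 had a log2 difference of -0.12 (SE 0.11), with 8.90 to 9.39 in high stress and 8.99 to 9.62 in low stress. SLC3A2, the heavy chain that several amino acid exchangers need to reach the cell surface, was at -0.11 (95% confidence interval -0.34 to 0.12), with 7 of 8 high stress animals below the low stress mean. SLC38A9, an arginine sensor of the lysosome, was at -0.30 (SE 0.21) and its second tested probe set at -0.17 (SE 0.21). SLC7A1, a cationic amino acid carrier, was at 0.07 (SE 0.12) and SLC38A10 at -0.07 (SE 0.13). Among the 10 transporters below the filter were the glutamate carriers SLC1A1, SLC1A2, SLC1A3 and SLC1A6 and the serotonin transporter SLC6A4.

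**Figure D3:**
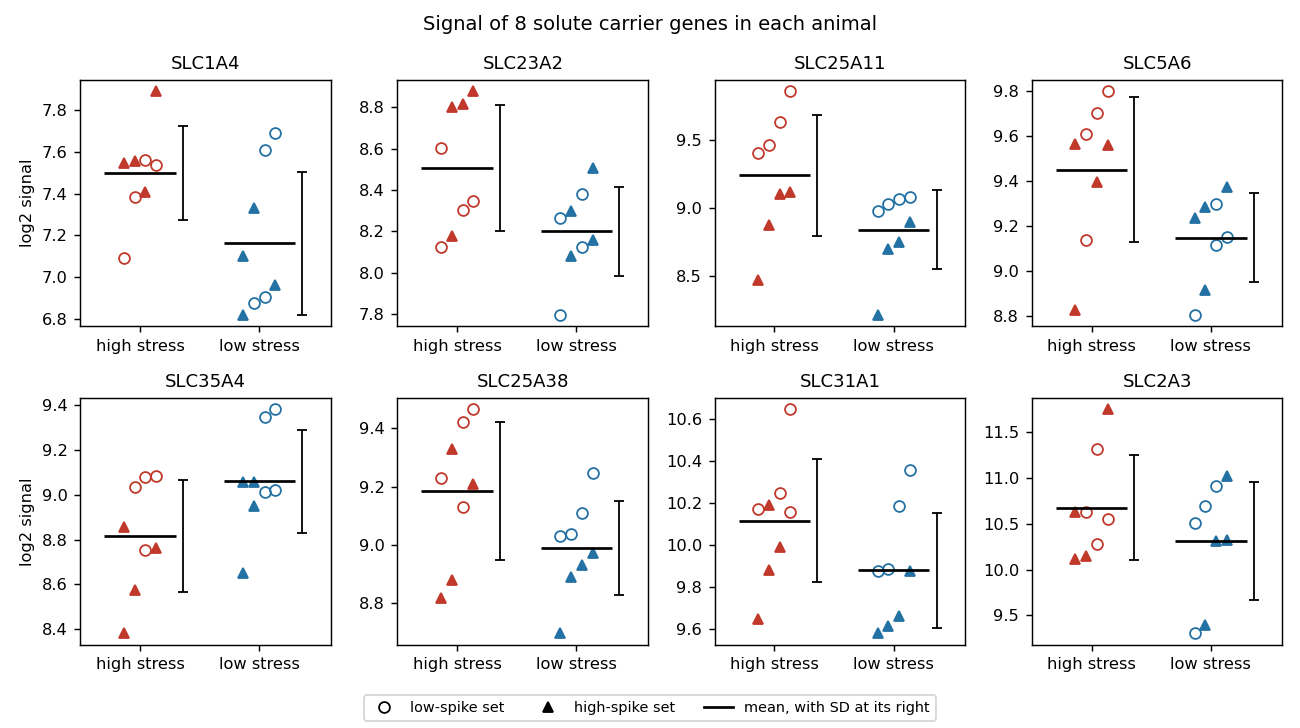
Log2 signal of 8 carriers in each animal (vertical axes), high stress at the left and low stress at the right of each panel, with the group mean (bar) and SD (whisker), n = 8 each; circles are arrays of the low-spike set and triangles of the high-spike set. The first 7 panels are the carriers at an unadjusted p under 0.05 with or without the set as a block, and SLC2A3 is added for its spread; the groups overlap in every panel.

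Sugar transporters and the sodium-coupled SLC5 carriers had 12 tested genes, 7 above 0 and 5 below, with a median log2 difference of 0.03; without low stress replicate 3 there were 5 above 0 and 7 below, with a median of -0.0388. SLC5A6, which takes up biotin and pantothenate, had 8.83, 9.56 and 9.80 in high stress and 8.81, 9.19 and 9.38 in low stress (lowest, median and highest). Of the high stress animals 6 lay above every low stress animal and the other 2 lay within the low stress range. The log2 difference was 0.30 (95% confidence interval 0.02 to 0.59, a fold of 1.23), with a limma p of 0.04 and an adjusted p of 0.999, and it was 0.47 on low-spike arrays and 0.13 on high-spike arrays.

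The glucose transporter SLC2A1 did not show a detectable difference, at 0.05 (95% confidence interval -0.32 to 0.42). SLC2A3, a glucose transporter of high affinity, had 10.12, 10.59 and 11.75 in high stress and 9.31, 10.42 and 11.03 in low stress (lowest, median and highest). High stress replicate 7 was the highest animal, and low stress replicates 5 and 3 the lowest at 9.31 and 9.39. The log2 difference was 0.37, with an interval from -0.22 to 0.96. SLC45A3 was at 0.30 (SE 0.16), with all 8 high stress animals above the low stress mean although the groups overlapped, and its second tested probe set at 0.19 (SE 0.20). SLC5A10 was at -0.31 (SE 0.27; -0.107 without high stress replicate 2) and SLC5A4 at -0.05 (SE 0.18), both of the sodium-coupled sugar carriers, and SLC2A4RG at -0.12 (SE 0.17), the last named after its value was seen. The fructose transporter SLC2A5, the insulin-responsive glucose transporter SLC2A4 and the iodide carrier SLC5A5 were among the 6 below the filter.

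The monocarboxylate transporters were represented by SLC16A3, which exports lactate from glycolytic cells, and by SLC16A13. SLC16A3 had 6.17, 7.13 and 7.47 in high stress and 6.26, 6.82 and 7.89 in low stress (lowest, median and highest), a log2 difference of 0.18 (95% confidence interval -0.30 to 0.66). The difference was -0.48 on low-spike arrays and 0.84 on high-spike arrays, where high stress animals were at 7.17 to 7.47 and low stress animals at 6.26 to 6.86. Such separation within a set was not particular to SLC16A3. SLC25A11 on low-spike arrays (9.40 to 9.86 against 8.98 to 9.08), SLC30A3 on low-spike arrays and SLC1A4 on high-spike arrays also had it. Its share over all probe sets was not computed, so nothing about these genes is read from it. The interaction of stress and set passed for 0 of 82 carriers and 0% of all probe sets at an adjusted p under 0.05 (limma), SLC16A3 included. SLC16A13 was at 0.04 (SE 0.12). The median of both genes was 0.11, and 0.0643 without low stress replicate 3.

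Metal ion transporters take up, export or store zinc, iron, copper and magnesium. Of 12 tested, 7 were above 0 and 5 below, with a median log2 difference of 0.01 (6 above 0, 6 below and -0.00599 without low stress replicate 3). In 11 of the 12 (91.7%) the interval lay within 1.5-fold either way, against 59 of all 82 carriers and 70.6% of all probe sets. SLC31A1, the copper importer, had 9.65, 10.16 and 10.65 in high stress and 9.58, 9.88 and 10.36 in low stress (lowest, median and highest). Its log2 difference of 0.24 (SE 0.14) was of like size in both sets, 0.23 on low-spike and 0.24 on high-spike arrays, and with the set as a block its limma p was 0.04 (adjusted p = 0.778). SLC30A3, which loads zinc into vesicles, was at 0.30 (SE 0.17), and its second tested probe set was at -0.05 (SE 0.30). That probe set passed the filter through low stress alone, with a mean of 6.19 there against 6.14 in high stress.

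SLC41A1, a magnesium transporter, was at -0.18 (SE 0.14), and of its 3 other tested probe sets 2 were below 0, at -0.13 and -0.14, and 1 above, at 0.03. SLC39A1, a zinc importer, was at 0.12 (SE 0.18). SLC11A2, which imports ferrous iron, had the smallest spread between animals of the 82 carriers, with 6.50 to 6.90 in high stress and 6.51 to 6.92 in low stress, and a difference of -0.04 (95% confidence interval -0.24 to 0.17). A dimmer probe set of SLC11A2 was at 0.39 (SE 0.17), with a mean of 6.39 in high stress and of 6.01, below the filter value, in low stress. SLC39A14, which imports zinc, iron and manganese, was at 0.00 (-0.33 to 0.33).

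Carriers of vitamins, lipids and cofactors had 8 tested genes, 4 above 0 and 4 below, with a median log2 difference of -0.02. SLC23A2, the vitamin C transporter of most tissues, had 8.12, 8.48 and 8.88 in high stress and 7.80, 8.21 and 8.51 in low stress (lowest, median and highest). Of the high stress animals 4, at 8.60 to 8.88, lay above every low stress animal, and 3 of these 4 were in the high-spike set. The log2 difference was 0.30 (95% confidence interval 0.02 to 0.59, a fold of 1.24), with a limma p of 0.0367 and an adjusted p of 0.999. It was 0.20 on low-spike arrays and 0.41 on high-spike arrays, and 0.30 without low stress replicate 3. The other vitamin C transporter, SLC23A1, lay below the filter with a mean log2 signal of 2.69. Within this class SLC44A4 was at 0.30 (SE 0.21; 0.174 without low stress replicate 3), the fatty acid transport protein SLC27A1 at 0.13 (SE 0.16), the riboflavin transporter SLC52A2 at -0.08 (SE 0.12) and SLC44A2 of the choline transporter-like family at -0.09 (SE 0.17).

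Nucleoside carriers (SLC28, SLC29) serve the cell surface and nucleotide-sugar carriers (SLC35) mostly the Golgi apparatus and the endoplasmic reticulum. Of 11 tested, 6 were above 0 and 5 below, with a median log2 difference of 0.07, and of 0.00624 without low stress replicate 3. SLC35A4 had 8.38, 8.81 and 9.08 in high stress and 8.65, 9.04 and 9.38 in low stress (lowest, median and highest), with 6 of 8 high stress animals below the low stress mean. A dimmer probe set of the gene, just below the filter at a mean of 6.14, differed in the other direction, at 0.19. The log2 difference was -0.24 (95% confidence interval -0.51 to 0.02), and it was -0.20 on low-spike and -0.29 on high-spike arrays. With the set as a block it was the only carrier with a lower value at an unadjusted p under 0.05 with limma, at 0.0255 before and 0.74 after adjustment, against 4.01% of all probe sets; 6 of 82 (7.32%) were higher in that fit, against 2.37%.

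SLC35F5 was at -0.25 (SE 0.23; -0.0841 without high stress replicate 6), and its 2 other tested probe sets were at -0.08 (SE 0.56) and 0.00 (SE 0.58). SLC35B1 of the endoplasmic reticulum was at 0.13 (SE 0.11). SLC29A1, an equilibrative nucleoside transporter named here after its value was seen, had the widest spread of the 82. In 4 of the 16 animals, all in the low-spike set, it lay between 3.27 and 5.47, and in the other 12 between 6.60 and 7.38. Of those 4, high stress replicates 1, 6 and 8 and low stress replicate 7, most were in high stress. The gene passed the filter through low stress alone, with a mean of 5.94 in high stress against 6.47 in low stress, and the log2 difference of -0.53 had an interval from -1.81 to 0.75. SLC28A1 and SLC28A3, the concentrative nucleoside transporters on the array, lay below the filter.

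Ion exchangers regulate cell pH, calcium, chloride and phosphate. Of 8 tested, 6 were above 0 and 2 below, with a median log2 difference of 0.09; without low stress replicate 3 there were 4 above 0 and 4 below, with a median of 0.0265. SLC9A5, a sodium-proton exchanger, passed the filter through high stress alone, with a mean of 6.55 there against 6.13 in low stress. Its difference was 0.42 (95% confidence interval -0.34 to 1.18), and 0.145 without low stress replicate 8. Its high stress animals lay close together, at 6.14 to 6.86, while the low stress animals spread from 4.18 to 7.37, both above and below them. SLC8B1, the mitochondrial sodium-calcium exchanger, was at 0.19 (SE 0.16), the anion exchanger SLC26A6 at 0.16 (SE 0.15) and the scaffold SLC9A3R1 at 0.12 (SE 0.15).

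Transporters of organic ions were mostly dim. SLC22A3, which clears catecholamines and other organic cations, had 5.71, 6.65 and 7.22 in high stress and 5.42, 6.36 and 6.87 in low stress (lowest, median and highest), a log2 difference of 0.24 (95% confidence interval -0.27 to 0.76). SLC22A5, which takes up carnitine, was at -0.18 (SE 0.15; -0.0834 without high stress replicate 1), with high stress replicate 1 at 6.87 and the other high stress animals at 7.43 or above. The renal and hepatic carriers SLC22A2, SLC22A6, SLC22A8 and SLC10A1 and the peptide transporters SLC15A1 and SLC15A2 lay below the filter. So did SLC17A1, the single gene described of the class of vesicular transporters and their relatives, from which SLC18A1 was left out. Its log2 signal averaged 2.74 with an SD of 1.97 in high stress, against 3.54 with an SD of 1.43 in low stress (8 animals each).

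**Figure D4:**
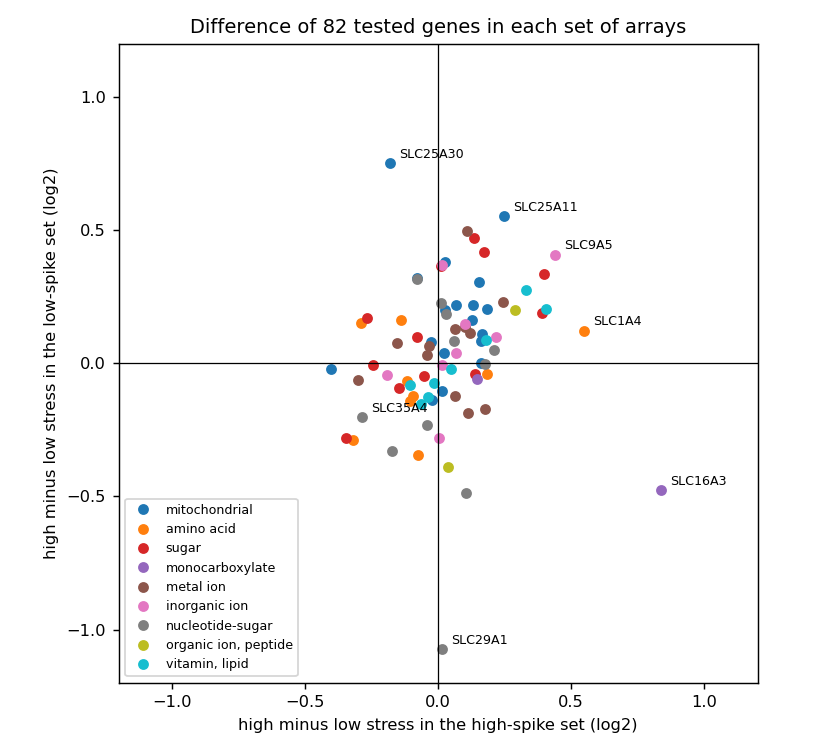
Log2 difference, high minus low stress, of the 82 tested carriers within the low-spike set (vertical axis) and on high-spike arrays (horizontal axis), each from 4 high stress and 4 low stress animals. In 56 of 82 the 2 differences had the same sign; SLC16A3 and SLC25A30 lie far into the quadrants of opposite sign, and SLC29A1 at -1.07 and 0.01.

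Within the 2 sets, which share no animal, 56 of 82 carriers (68.3%) had a difference of the same sign, against 58.2% of the 5455 genes tested. SLC25A11, SLC25A38, SLC31A1, SLC5A6, SLC23A2 and SLC1A4 were above 0 in both sets and SLC35A4 below 0 in both. These genes were picked by their unadjusted p over both sets together, which favours like signs, so this is no separate test of them. SLC25A30, named after its value was seen, was at 0.75 on low-spike arrays and at -0.18 on high-spike arrays. Carriers with a large difference between the sets were SLC3A1, the heavy chain of the cystine transporter, with means of 8.29 in the high-spike set and 7.16 in the low-spike set, and SLC35B3, with 8.33 and 7.39 in the same order. SLC35B3 reached at least 8.003 on each high-spike array and at most 7.70 on each low-spike array, whereas the ranges of SLC3A1 overlapped, with a lowest high-spike value of 7.67 and a highest low-spike value of 7.695. Both genes were named after their values were seen, and the stress groups were represented equally in each set.

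The spread between animals within a group, as the SD of log2 signal, had a median of 0.32 over the 82 carriers, against 0.28 over the 5455 genes tested. Named after these SDs were seen where they are not described above, the smallest were those of SLC11A2 (0.157), SLC25A20 (0.180), SLC12A4 (0.183), SLC25A4 (0.185) and SLC1A5 (0.187), and the largest those of SLC29A1 (1.35), SLC9A5 (0.792), SLC3A1 (0.743), SLC2A3 (0.611) and SLC5A10 (0.578). SLC3A1 and SLC29A1 also differed between the 2 sets, whereas SLC2A3 and SLC9A5 had adjusted p of 0.886 and 0.41 for that comparison (limma).

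Genes with several tested probe sets gave a check within the arrays. Of 20 such carriers, 8 had the same sign in all their tested probe sets and 12 did not. Of the genes above, SLC38A9, SLC45A3 and, with the limit given above, SLC9A5 (0.42 and 0.20) had the same sign in both. So did SLC39A1, with 0.12 for the brightest and 0.23 (SE 0.11) for the other. SLC30A3, SLC11A2, SLC25A3, SLC35F5, SLC41A1 and SLC44A2 did not have the same sign throughout. In SLC9A5, SLC11A2 and SLC30A3 a probe set passed the filter through 1 group alone, which favours its sign, so these genes give no check. The counts of 8 and 12 include them. The other tested probe set of SLC25A3 was at -0.02, and those of SLC44A2 were at -0.03 and 0.13. The same count over all genes was not made. SLC1A4, SLC23A2, SLC25A11 and SLC5A6 had 1 probe set each, so this check could not be made for them.

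**Figure D5:**
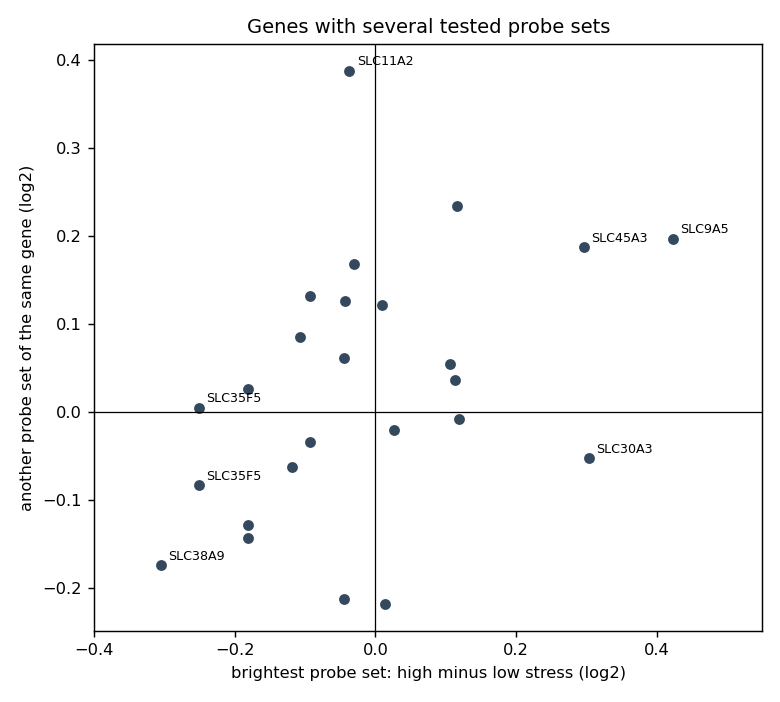
Log2 difference, high minus low stress, of the brightest probe set (horizontal axis) and of each other tested probe set of the same gene (vertical axis) for the 20 carriers with several tested probe sets. Points in the lower left and upper right have the same sign. Among those that do not are SLC11A2, at -0.04 and 0.39, and SLC30A3, at 0.30 and -0.05. The second value of each is from a probe set that passed the filter through 1 group alone.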

How the data were processed

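Gene expression was measured in adrenal glands of 16 pigs, 8 per group by the labels' stress level, with 1 array each. The authors deposited linear intensity values per probe set. MAS5 and Affymetrix Expression Console (version 1.1.1) are the tools in the submitters' processing notes. Trimmed at both ends, the mean of each array was close to 500.1. Of 24123 probe sets 124 controls were removed, and 10069 of the others had 1 gene symbol, 198 several and 13732 none. Of the 120 carriers 118 matched the reference gene table by gene number, with 0 changed symbols. Values were taken to log2. Probe sets under the 40th percentile of mean signal (log2 6.15) were left out, which kept 14399. High and low stress were set against each other by lmFit and eBayes of limma 3.58.1 under R 4.3.3 (two-sided, Benjamini-Hochberg over all probe sets tested). The script was tested on simulated data. The number of arrays limits the precision.

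Genes named with values are the tested carriers first by p among those above 0 and among those below 0 (8 each), the 2 with the smallest p and the 2 with the highest signal in each of 10 classes formed by family number, and 12 measured genes of a fixed list; others are said to have been chosen after their values were seen, or are named only as below the filter. The carriers, classes and list were chosen with earlier results of these data known. Figures were drawn with matplotlib 3.10.9.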

Additional observations from a re-analysis of the deposited data

Results flagged for a closer look

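In 6 of 88 groups of a named carrier, 1 animal lay far from the other 7 by Dixon's ratio at its 95% critical value; chance marks about 1 group in 20. Each next value given here is that of the same stress group. Low stress replicate 3 was the lowest low stress animal for SLC25A11, at a log2 signal of 8.213 with the next at 8.697, and for SLC3A2, at 7.495 with the next at 7.922. High stress replicate 2 was the lowest high stress animal for SLC5A10, at 5.499 with the next at 6.619, and for SLC8B1, at 6.108 with the next at 6.822. High stress replicate 1 was the lowest high stress animal for SLC22A5, at 6.866 with the next at 7.428. High stress replicate 4 was the lowest high stress animal for SLC9A3R1, at 9.732 with the next at 10.2.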

How the results depend on the processing

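The labels give no pairing of animals, and the animals' numbers are all different. Their first digit, which both groups share and whose meaning is not given, served as a block and gave 5 higher and 0 lower. Each first digit occurs in both stress groups within both sets, and a block on digit and set together was not fitted. No carrier passed an adjusted p under 0.05 with limma under any setting tried, replicates left out included. At an unadjusted limma p under 0.05, 4 carriers were higher and 0 lower in the fit reported. Without the filter 4 of 120 were lower, against 2.48% of all probe sets. They were SLC15A2, SLC6A14, SLC6A4 and SLC9A4, all below the filter and named after their values were seen. In the fit that blocks on the set 1 was lower (4.01% of all probe sets), and on low-spike arrays alone 1 was lower (5.21%). On high-spike arrays alone 2 were higher (1.11%). Quantile normalization gave 5 higher (1.67%), without SLC25A11 and with SLC30A3 and SLC45A3. Median centring gave 6 higher (2.21%), with both of these added. Leaving out single animals gave 0 to 5 higher (0.868% to 2.04% of all probe sets) and 0 to 1 lower (1.61% to 2.80%). The median of the amino acid transporters was -0.21 without the filter, and that of the monocarboxylate transporters was -0.27 on low-spike arrays and 0.492 on high-spike arrays. Some log2 differences turned sign, as listed next. Among them, those of SLC16A3 (0.18) and SLC22A5 (-0.18) in the fit reported were not near 0. SLC11A2 was at 0.0357 after quantile normalization and at 0.0359 after median centring, which also put SLC38A10 at 0.00344 and SLC5A4 at 0.0259. On low-spike arrays SLC16A13 was at -0.0581, SLC16A3 at -0.48, SLC2A1 at -0.0398, SLC38A10 at 0.15, SLC39A14 at -0.17, SLC5A4 at 0.17 and SLC7A1 at -0.0405. On high-spike arrays SLC11A2 was at 0.11, SLC22A5 at 0.0353 and SLC25A3 at -0.0274. When all probe sets of a gene were averaged, SLC39A14 was at -0.065 and SLC44A2 at 0.00185. Without single animals SLC16A13 ranged from -0.0138 to 0.106, SLC25A3 from -0.0295 to 0.0686, SLC25A6 from -0.0158 to 0.0861, SLC2A1 from -0.0243 to 0.123, SLC39A14 from -0.0656 to 0.0692, SLC5A4 from -0.166 to 0.0234 and SLC7A1 from -0.00305 to 0.119. Another 21 named carriers kept their sign without any single animal but came to lie over 1.5 times nearer to 0 without one. The cause of these changes was not tested. The 38 carriers below the filter were not tested between groups in the fit reported, and 8 animals a group limit the precision for the rest.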
